A study of Rattus norvegicus with 12 samples.

Results

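The 9 genes described here belong to antigen presentation and the interferon response: B2m, Psmb8, Psmb9, Tap1, Tap2, Irf1, Irf7, Ifnlr1 and Il18. They were chosen by name, through the gene symbol that the platform's probe-to-gene table gives each probe set. They make up 9 of the 14218 genes with a symbol of their own and 11 of the 31099 probe sets. B2m and Tap1 have 2 probe sets each, and the probe set with the higher mean over the 12 arrays stands for the gene.

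Levels are log2 signals, read on 12 rat arrays of 1 colour, and each of the 6 cell lines or cultures had 2 arrays. The iPS lines A1 and A2 are induced pluripotent stem cells of the FHH rat strain, made with a transposon system and grown on mouse embryonic fibroblasts whose division had been stopped. DAC2 and DAC8 are labelled embryonic stem (ES) cell lines, of a strain that the labels do not name. REF1 and REF2 are labelled cultures of FHH embryonic fibroblasts (EF), prepared from e14.5 embryos. No gene was deleted and no interferon was added in any group, as far as the labels say. The iPS and ES cells were kept in 2i medium and collected 5 days after passage, and the fibroblasts were kept in MEF medium and collected after 6 days. Each iPS or ES line is 1 line, and the labels do not say whether its 2 arrays came from separate cultures, so the p-values here take in array-to-array spread alone, which may be technical.

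Almost every nucleated cell displays fragments of its own proteins on class I molecules. The proteasome cuts proteins into peptides, the Tap1-Tap2 transporter moves them into the endoplasmic reticulum, and a heavy chain paired with beta-2 microglobulin, the product of B2m, carries them to the cell surface. Interferons raise this machinery through STAT and IRF transcription factors, and the inducible subunits Psmb8 and Psmb9 then replace constitutive subunits of the proteasome. Pluripotent stem cells are known for weak class I display and a weak interferon response, so the 6 lines were compared for lower levels in stem-like than in fibroblast-like lines.

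The promoters of 4 members are shown, chosen as follows. Psmb9 and Tap1 are neighbours that differed in opposite directions when DAC2 and REF2 were set against DAC8 and REF1. Irf1 differed most widely among the transcription factors, and B2m varied least. Each is the RefSeq window from 250 bases before to 50 bases after the start site that the promoter table uses, in the assembly GRCr8, written 5′ to 3′ on the gene's own strand. For Psmb9 and B2m that site lies downstream of the first base of the gene's annotated span, and positions here count from it. The arrays measured RNA, and nothing was measured at these windows. Capitals mark matches to an interferon-stimulated response element (GAAA, 2 bases of any kind, GAAA), a gamma-interferon activation site (TTCNNNGAA) or an NF-kappaB site (GGG, 2 bases of any kind, TTTCC), searched on both strands.
Psmb9, chr20:4668750-4669049, plus strand: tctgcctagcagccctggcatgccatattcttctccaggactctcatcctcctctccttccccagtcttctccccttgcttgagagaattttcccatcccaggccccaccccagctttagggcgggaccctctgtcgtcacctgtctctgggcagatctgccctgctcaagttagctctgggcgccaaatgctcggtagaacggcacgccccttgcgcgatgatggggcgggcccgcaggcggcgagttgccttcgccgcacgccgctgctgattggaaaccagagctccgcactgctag
Tap1, chr20:4668494-4668793, minus strand: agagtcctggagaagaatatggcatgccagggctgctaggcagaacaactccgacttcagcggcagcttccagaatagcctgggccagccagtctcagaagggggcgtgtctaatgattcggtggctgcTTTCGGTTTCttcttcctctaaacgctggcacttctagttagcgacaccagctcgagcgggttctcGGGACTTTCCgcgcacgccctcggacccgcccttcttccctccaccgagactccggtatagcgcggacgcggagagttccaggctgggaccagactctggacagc
Irf1, chr10:38417685-38417984, plus strand: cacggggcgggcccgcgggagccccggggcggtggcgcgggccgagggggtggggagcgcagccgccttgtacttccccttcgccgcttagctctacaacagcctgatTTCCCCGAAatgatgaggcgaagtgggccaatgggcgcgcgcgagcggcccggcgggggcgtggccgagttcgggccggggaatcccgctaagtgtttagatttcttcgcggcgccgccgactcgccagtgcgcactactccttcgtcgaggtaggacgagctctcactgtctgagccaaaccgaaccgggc
B2m, chr3:129549080-129549379, plus strand: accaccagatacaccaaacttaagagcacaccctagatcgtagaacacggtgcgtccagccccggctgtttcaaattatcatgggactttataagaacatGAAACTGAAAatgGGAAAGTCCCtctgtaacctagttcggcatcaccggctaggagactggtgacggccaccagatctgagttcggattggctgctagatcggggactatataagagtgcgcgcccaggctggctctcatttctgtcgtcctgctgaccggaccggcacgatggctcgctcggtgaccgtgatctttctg

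Psmb9 and Tap1 lie head to head on chromosome 20, and their windows share 44 bases. The start sites in the table are 457 bases apart. The Tap1 window holds a response element on the reverse strand, TTTCGGTTTC, which begins at position -121 from the start, and an NF-kappaB match, GGGACTTTCC, at -55. None of these 3 motifs was found in the Psmb9 window, which says only that these letters are not in this stretch. Both Tap1 matches lie between the start sites of the 2 genes, so they are upstream of Psmb9 too, beyond the edge of its window. Irf1 holds the activation site TTCCCCGAA at -142. The B2m window holds GAAACTGAAA at -150, beside the reverse NF-kappaB match GGAAAGTCCC at -137. All 9 members had a window in the table. The response element was found in 5 of them (B2m, Psmb8, Tap1, Tap2 and Irf7), against 3.92% of 33469 rat promoter windows of the same length. The activation site was found in 2 (Psmb8 and Irf1), against 8.87% of all windows, and the NF-kappaB site in 2 (B2m and Tap1), against 1.53%. A match is a description of the letters, not a shown binding site.

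Several arrays went against their labels. DAC8, labelled ES, had a fibroblast profile: all 10 fibroblast markers were at a log2 level of 5 or more in DAC8 and in REF1, against 4 of 10 in each of the other lines. REF2, labelled EF, had the profile of the ES line DAC2, with 8 of 8 pluripotency markers at 5 or more in both, against 2 or 3 of 8 elsewhere. Postn, a fibroblast matrix gene, reached 13.61 in DAC8 and 13.74 in REF1 but only 3.45 to 3.79 elsewhere, and Esrrb, a naive pluripotency factor, measured 10.28 in DAC2 and 9.96 in REF2 against 4.14 to 4.82. Both iPS lines were low for Postn, Esrrb and Epcam, with all 10 neural markers at 5 or more. Of these 10 neural markers, 7 reached 5 in DAC8 and in REF1, 4 in REF2 and 3 in DAC2. Pou5f1 and Nanog were not analysed here. No array was moved to another group, and each line is therefore compared with each other line under its own name. The medium, collection day and source given above for DAC8 and REF2 come from the same labels, and may not be those of the cells read. The beta-actin probe sets, read as 3′ minus 5′ for RNA quality, gave 0.84 to 1.05 log2 units on the A1, A2, DAC2 and REF2 arrays and 0.42 to 0.52 on the DAC8 and REF1 arrays. Its part in the differences between these lines was not tested.

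A gene was tested when its highest line mean reached 5, which 11001 genes did. Psmb8 did not, so 8 of the 9 members were tested. Nothing in the files separates levels below 5 from background, so a difference with such a level on 1 side may understate the change, and one with both sides below 5 is between levels that may both be background. Lines were compared in limma with the 6 lines as the factor, and a gene was called at a Benjamini-Hochberg adjusted p under 0.05 over the 11001 genes. In the text below, a difference is a log2 difference ± its standard error, with 2 arrays against 2. Most genes were called between lines of unlike profile, so a count of members called is read against the share of all genes called.

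Lower levels in stem-like lines were found for Tap1 in all 4 pairs that set DAC2 or REF2, with the ES-like profile, against DAC8 or REF1, with the fibroblast profile. B2m was lower in DAC2 than in both of these lines, but not in REF2. Psmb9, Irf1, Ifnlr1 and Il18 went the other way: each was higher in both ES-like lines than in either fibroblast-like line. The iPS lines A1 and A2 had the lowest means of Psmb9, Psmb8, Tap1, Tap2, Irf1 and Irf7, though not every step to the next line was called, and the highest Il18.

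**Figure D1:**
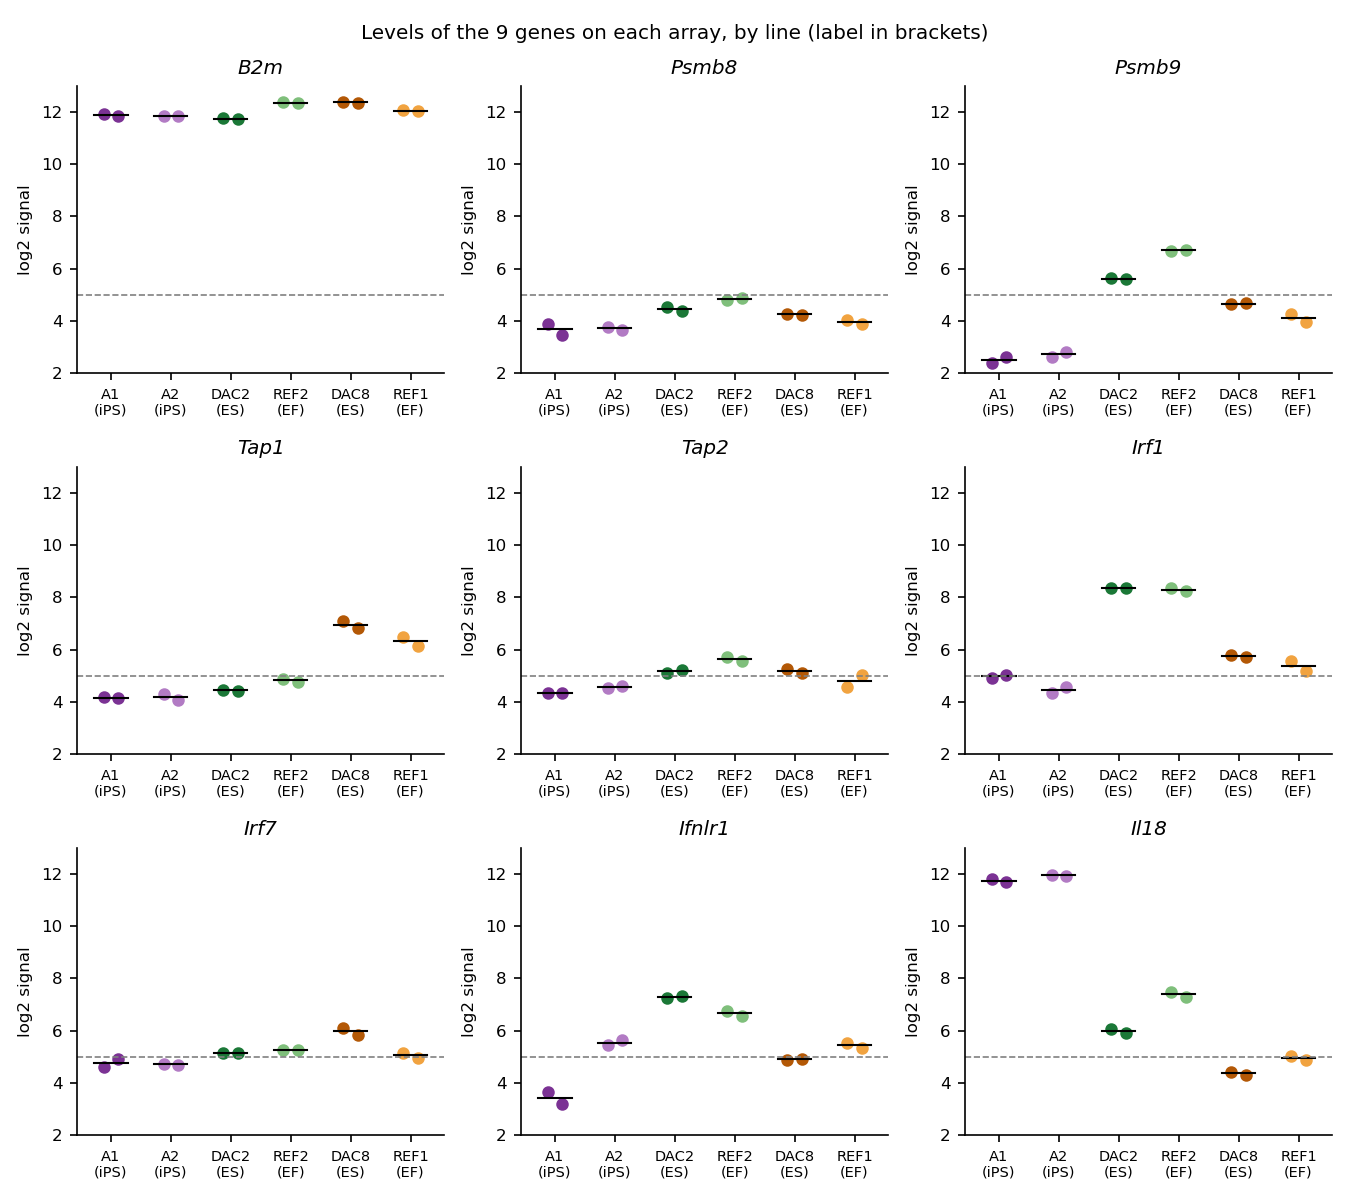
Log2 signal of each of the 9 genes (vertical axis) on the 2 arrays of each line (points), with the line mean as a bar and the filter level of 5 dashed. Psmb9, Irf1 and Ifnlr1 are highest in DAC2 and REF2, Tap1 is highest in DAC8 and REF1, and Il18 is near 12 on the A1 and A2 arrays only.

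Psmb9 encodes the beta-1i subunit of the immunoproteasome. Its log2 levels on the replicate 1 and replicate 2 arrays were 6.69 and 6.71 in REF2, 5.63 and 5.61 in DAC2, 4.63 and 4.67 in DAC8 and 4.24 and 3.96 in REF1. The iPS arrays lay lower still, at 2.37 and 2.62 in A1 and 2.63 and 2.81 in A2. The arrays of REF2 and DAC2 lay above all others without overlap, and only these lines passed the level of 5. DAC2 exceeded DAC8 by 0.97 ± 0.11 (1.95-fold, limma adjusted p = 2.27e-05), and REF2 exceeded REF1 by 2.60 ± 0.11 (6.05-fold, adjusted p = 1.81e-08). The order REF2, DAC2, DAC8, REF1, A2 was called at every step, and A2 and A1 did not differ beyond their spread (adjusted p = 0.408). The step from DAC8 to REF1 (0.55 ± 0.11, adjusted p = 0.00859) was lost without REF1 replicate 2 (adjusted p = 0.0543). Lower signal in a culture can mean fewer cells that express a gene or less RNA per cell, which cannot be told apart in these bulk samples.

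Psmb8, the beta-5i subunit, was below 5 on every array. Its highest levels were 4.79 and 4.86 in REF2, followed by 4.52 and 4.38 in DAC2, 4.26 and 4.22 in DAC8 and 4.03 and 3.88 in REF1. A2 measured 3.75 and 3.66, and A1 3.89 and 3.47. With no filter on level, REF2 exceeded REF1 by 0.87 ± 0.13 (limma over 14218 genes, adjusted p = 0.000184), while DAC2 and DAC8 differed by 0.21 ± 0.13 (adjusted p = 0.17). No step between neighbouring lines, from REF2 through DAC2, DAC8, REF1 and A2 to A1, was called in that fit (adjusted p = 0.0508 to 0.976).

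Tap1 encodes one chain of the peptide transporter. Its levels ran against those of its neighbour Psmb9 between the ES-like and fibroblast-like lines only. The line means of both genes were lowest in the iPS lines, higher in REF2 than in DAC2 and higher in DAC8 than in REF1. Tap1 levels were 7.08 and 6.82 in DAC8 and 6.50 and 6.13 in REF1. All other arrays lay below 5: REF2 at 4.89 and 4.75, DAC2 at 4.46 and 4.42, A1 at 4.18 and 4.14 and A2 at 4.29 and 4.05. The DAC8 and REF1 arrays did not overlap with the rest, and only in these lines did Tap1 reach the filter level. DAC2 fell below DAC8 by 2.50 ± 0.14 (5.67-fold, limma adjusted p = 9.64e-08), and REF2 lay 2.82-fold below REF1, a difference of -1.50 ± 0.14 (adjusted p = 4.07e-06). DAC8 and REF1 differed by 0.63 ± 0.14 (adjusted p = 0.0117), a call lost when only these 2 lines were fitted (adjusted p = 0.0627), without DAC8 replicate 1 (adjusted p = 0.0828) and without REF1 replicate 2 (adjusted p = 0.0696). The second Tap1 probe set measured 3.04 to 3.48 on all 12 arrays, below the filter, and shows none of this difference.

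**Figure D2:**
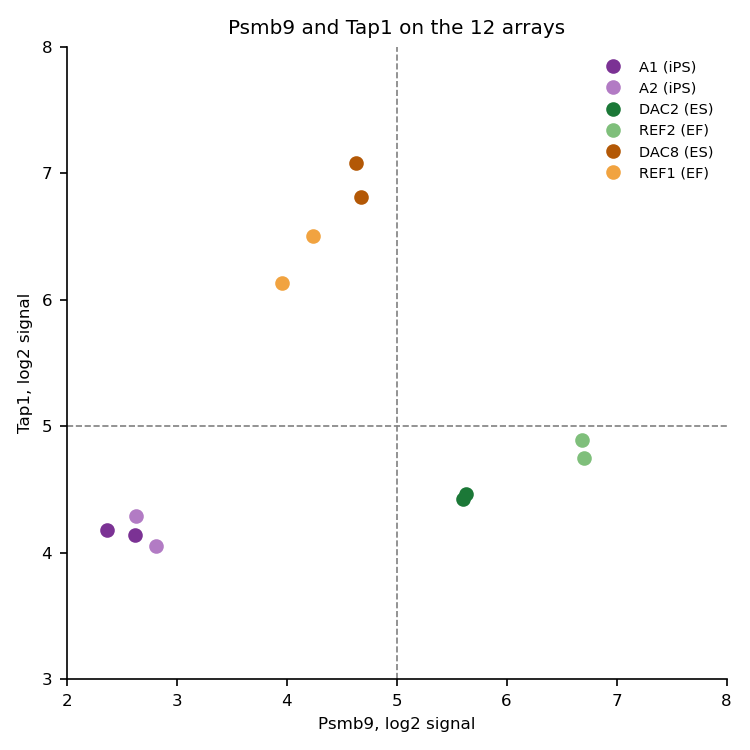
Psmb9 (horizontal axis) against Tap1 (vertical axis), log2 signal, 1 point per array, with the filter level of 5 dashed on both axes. DAC2 and REF2 lie to the right with Psmb9 at 5.61 to 6.71 and Tap1 below 5, DAC8 and REF1 lie high with Tap1 at 6.13 to 7.08 and Psmb9 below 5, and the iPS arrays are low for both.

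Tap2, the other chain of the transporter, followed neither pattern closely. Its levels were 5.70 and 5.57 in REF2, 5.26 and 5.10 in DAC8, 5.12 and 5.23 in DAC2, and 4.57 and 5.04 in REF1. The iPS lines were lowest, with 4.51 and 4.60 in A2 and 4.34 and 4.33 in A1. REF2 stood above every other line, although its step over DAC8 (0.45 ± 0.13, limma adjusted p = 0.0109) was lost without DAC8 replicate 2 (0.0708) or REF2 replicate 1 (0.0671). The arrays of DAC2 and DAC8 overlapped, and so did those of REF1 and A2. REF2 exceeded REF1 by 0.83 ± 0.13 (1.78-fold, limma adjusted p = 0.00028). DAC2 and DAC8 differed by -0.01 ± 0.13 (adjusted p = 0.939), and the sign of that difference turned under both other scalings of the arrays and without DAC2 replicate 1 or DAC8 replicate 1. DAC2 exceeded REF1 by 0.36 ± 0.13 (adjusted p = 0.0298), a call lost without DAC2 replicate 1 (adjusted p = 0.051), DAC2 replicate 2 (0.128) or REF1 replicate 1 (0.248), and with only these 2 lines fitted (0.0889).

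B2m encodes beta-2 microglobulin, the light chain shared by class I molecules. The standing probe set read 12.40 and 12.35 in DAC8, 12.37 and 12.34 in REF2, 12.06 and 12.04 in REF1, 11.92 and 11.87 in A1, 11.86 and 11.84 in A2 and 11.76 and 11.72 in DAC2. The whole range of line means was 0.63 log2 units, so B2m was high in every line and varied least of the members tested. DAC2 was lower than DAC8 by 1.55-fold, a difference of -0.63 ± 0.05 (limma adjusted p = 1.31e-06), but REF2 and DAC8 overlapped and differed by -0.02 ± 0.05 (adjusted p = 0.728).

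The second B2m probe set put the iPS lines elsewhere. It read 9.29 and 9.36 in A1, 9.39 and 9.42 in A2, 9.29 and 9.28 in DAC8, 9.27 and 9.22 in REF2, 8.83 and 8.66 in REF1 and 8.58 and 8.55 in DAC2. DAC2 was again lowest, but A1 and A2 lay above REF1 instead of below it. A1 exceeded REF1 by 0.59 ± 0.07 on this probe set (limma adjusted p = 2.53e-05), against -0.16 ± 0.05 (adjusted p = 0.0144) on the standing one. The latter call was lost without A1 replicate 2 (adjusted p = 0.0866) or REF1 replicate 1 (0.0572), with quantile normalization (0.052) and with only the 2 lines fitted (0.0764). Against REF2 and DAC8, where the standing probe set was called lower in both iPS lines, the second put A1 (0.0819 and 0.0474) and A2 (0.16 and 0.13) slightly higher, with no call. The probe sets therefore disagree on the direction of B2m between the iPS lines and REF1, REF2 and DAC8, and they share the low level of DAC2 (-0.72 ± 0.07 against DAC8, adjusted p = 4.83e-06).

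Irf1, a transcription factor that interferon-gamma induces and that acts on class I and immunoproteasome genes, measured 8.37 and 8.35 in DAC2 and 8.36 and 8.24 in REF2. DAC8 followed with 5.81 and 5.71 and REF1 with 5.57 and 5.19, then A1 with 4.92 and 5.04 and A2 with 4.33 and 4.56. A wide gap separated DAC2 and REF2, whose arrays overlapped, from all others. The differences were 2.60 ± 0.12 for DAC2 over DAC8 (6.05-fold, limma adjusted p = 3.66e-08) and 2.92 ± 0.12 for REF2 over REF1 (7.58-fold, adjusted p = 1.64e-08). Against A2, the lowest line, DAC2 was 15.0-fold higher (A2 minus DAC2 -3.91 ± 0.12, adjusted p = 3.59e-09).

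Irf7, the factor that amplifies type I interferon transcription, moved with Tap1 in DAC8 alone. It measured 6.11 and 5.84 in DAC8, against 5.26 and 5.25 in REF2, 5.16 and 5.16 in DAC2 and 5.15 and 4.95 in REF1. The iPS arrays read 4.61 and 4.91 in A1 and 4.73 and 4.68 in A2. DAC8 stood apart from all other lines, and the next 3 lines could not be separated: REF2 and DAC2 differed with adjusted p = 0.549, and DAC2 and REF1 with adjusted p = 0.417. DAC8 exceeded REF1, the line closest to it over all genes, by 0.92 ± 0.12 (1.89-fold, limma adjusted p = 0.000986). The call of REF1 over A1 (A1 minus REF1 -0.30 ± 0.12, adjusted p = 0.042) was lost in 8 of the 12 fits that left out 1 array, with adjusted p up to 0.3 without A1 replicate 1.

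Ifnlr1 encodes the ligand-binding chain of the receptor for interferon-lambda, a receptor typical of epithelial cells. Its levels were 7.26 and 7.33 in DAC2 and 6.77 and 6.56 in REF2, then 5.43 and 5.65 in A2, 5.54 and 5.35 in REF1, 4.88 and 4.92 in DAC8 and 3.66 and 3.20 in A1. DAC2 and REF2 were again highest, and A2 overlapped with REF1. The step from DAC2 to REF2 was lost without REF2 replicate 2 (adjusted p = 0.0544), and that from REF1 to DAC8 without any 1 array of these lines (0.061 to 0.153). Epcam, an epithelial adhesion gene, was high in the same lines, at 11.84 in DAC2 and 11.55 in REF2 against 2.84 to 3.94 elsewhere, and its relation to Ifnlr1 was not tested. DAC2 exceeded DAC8 by 2.39 ± 0.15 (5.24-fold, limma adjusted p = 2.34e-07), and REF2 exceeded REF1 by 1.23 ± 0.15 (2.34-fold, adjusted p = 3.15e-05). Ifnlr1 was the only member called between the 2 iPS lines, where 1.81% of all genes were called, 1.25% higher and 0.554% lower in A1: A1 lay 4.32-fold below A2, a difference of -2.11 ± 0.15 (adjusted p = 0.000185). With only A1 and A2 in the fit that call was lost (adjusted p = 0.0788).

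Il18, a cytokine of the interleukin-1 family that promotes interferon-gamma production, had the widest range. It measured 11.82 and 11.69 in A1 and 11.98 and 11.94 in A2. The other lines read 7.48 and 7.29 in REF2, 6.08 and 5.92 in DAC2, 5.02 and 4.86 in REF1 and 4.42 and 4.32 in DAC8. The lines fell into a strict order with no overlap between them, and each step was called except that between A2 and A1 (adjusted p = 0.371). A1 exceeded REF2, the next line, by 4.37 ± 0.09 (20.6-fold, limma adjusted p = 4e-10). Among the other lines, REF2 exceeded REF1 by 2.45 ± 0.09 (5.45-fold, adjusted p = 8.56e-09) and DAC2 exceeded DAC8 by 1.63 ± 0.09 (3.10-fold, adjusted p = 1.39e-07).

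Macrophages and other blood cells express several of these genes, so their markers were read beside them. Between 0 and 3 of 10 such markers reached 5 in any line, and the defining blood gene Ptprc measured 2.58 to 2.78 in all 6. The summed linear signal of the list was 147 to 168 on the iPS arrays, 182 to 193 in DAC2, 224 to 233 in REF2 and 361 to 386 in DAC8 and REF1. That sum was lowest in the iPS lines, where Il18 was highest, and highest in DAC8 and REF1, where Tap1 was highest. Cd14, at 7.05 in DAC8 and 7.46 in REF1 against 3.80 to 4.26 elsewhere, was part of the latter, and the part of blood cells in the Tap1 difference was not tested.

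Each line with the ES-like profile was then set against each line with the fibroblast profile. Between DAC2 and DAC8, 7 of the 8 tested members were called, against 84.2% of all genes. Ifnlr1, Il18, Irf1 and Psmb9 were higher in DAC2 (47.9% of all genes) and B2m, Irf7 and Tap1 lower (36.3%). Between DAC2 and REF1, 7 were also called (84.2% of all genes), 5 higher in DAC2 (48.2%), Tap2 now among them, and B2m and Tap1 lower (36.1%). For REF2 against DAC8 the 7 calls (83.5% of all genes) were 5 higher in REF2 (47.0%) and Irf7 and Tap1 lower (36.5%). REF2 against REF1 gave 7 calls (83.3% of all genes), 6 higher in REF2 (47.3%) and Tap1 alone lower (36.0%). The shares called are close to those of all genes and are not a result about the members. The members' median difference was 0.48, 0.71, 1.11 and 1.03 in these 4 pairs, in the order given, beside 0.18, 0.18, 0.14 and 0.15 for all tested genes. Psmb9 passed the filter through DAC2 and REF2 alone, and Tap1 through DAC8 and REF1 alone. The members were also named with earlier results of these arrays known, so these medians are a description too. The 4 pairs share arrays and are not independent of each other.

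**Figure D3:**
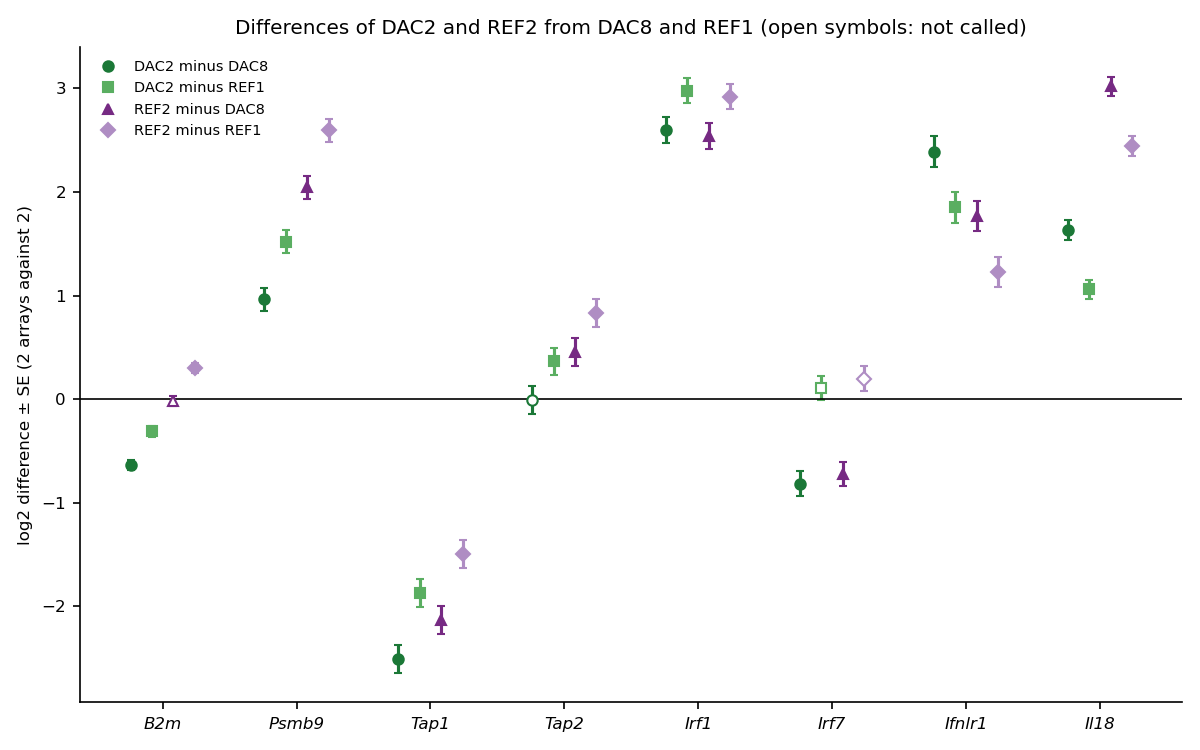
Log2 difference ± SE (vertical axis) of the 8 tested members in the 4 pairs that set DAC2 or REF2 against DAC8 or REF1, with open symbols where the difference was not called. Psmb9, Irf1, Ifnlr1 and Il18 lie above 0 in all 4 pairs, Tap1 lies below 0 in all 4, and B2m, Tap2 and Irf7 differ in sign or call between pairs.

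Lines of like profile differed among themselves. DAC2 and REF2 gave 6 member calls, against 45.7% of all genes: Ifnlr1 was higher in DAC2 (20.9% of all genes), and B2m, Il18, Psmb9, Tap1 and Tap2 were lower (24.8%). Psmb9 was 2.11-fold higher in REF2 than in DAC2 (DAC2 minus REF2 -1.08 ± 0.11, limma adjusted p = 8.44e-05), and Il18 was 2.61-fold higher in REF2. The Tap1 call in this pair (-0.38 ± 0.14, adjusted p = 0.0477) had both levels below 5 and was lost in 6 of the 12 fits that left out 1 array, with adjusted p up to 0.209 without REF2 replicate 1. The Tap2 call was lost without DAC2 replicate 1 (adjusted p = 0.1) or REF2 replicate 1 (0.11). DAC8 and REF1 also gave 6 member calls, against 19.8% of all genes. B2m, Irf7, Psmb9 and Tap1 were higher in DAC8 (11.0% of all genes), and Ifnlr1 and Il18 were lower (8.81%), by -0.54 ± 0.15 and -0.57 ± 0.09. For Psmb9 and Il18 both line means lie below 5 and may both be background. The count was 4 to 6 with single arrays left out, and the calls of Ifnlr1, Psmb9 and Tap1 were each lost in some of those fits. The members were named with earlier results of these arrays known, so their larger share here is a description.

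The iPS lines were lower than the other lines for most members. A1 against REF2 gave 8 of 8 calls (77.7% of all genes), Il18 higher in A1 (38.1%) and 7 members lower (39.6%). The same split came from A1 against DAC8, with 8 calls (78.9% of all genes, 45.2% higher and 33.7% lower). It also came from A1 against REF1 (79.1% of all genes, 45.6% higher and 33.5% lower), though that count fell to 5 without REF1 replicate 1. A1 against DAC2 gave 7 calls (78.1% of all genes), with Il18 and B2m higher in A1 (37.1%) and 5 members lower (40.9%). The B2m call there (0.15 ± 0.05, limma adjusted p = 0.0176) was lost without A1 replicate 1 (adjusted p = 0.0995) or DAC2 replicate 2 (0.0894), with array medians made equal (0.388) and with only the 2 lines fitted (0.0687). On the second B2m probe set A1 exceeded DAC2 by 0.76 ± 0.07 (adjusted p = 4.32e-06). The Irf7 call (-0.40 ± 0.12, limma adjusted p = 0.0111) was lost without A1 replicate 1 (0.091). Psmb9 in A1 was 18.4-fold below REF2 and 8.72-fold below DAC2, folds that rest on an A1 level below 5. It was also called lower than in DAC8 and REF1, but there both levels lie below 5, so no fold is given. Irf1 in A1 was 10.0-fold below REF2, 10.4-fold below DAC2, 1.72-fold below DAC8 and 1.32-fold below REF1. The last of these calls (-0.40 ± 0.12, limma adjusted p = 0.0129) was lost without A1 replicate 1 (adjusted p = 0.0704) and without REF1 replicate 1 (-0.22, adjusted p = 0.104), and that of Tap2 in the same pair without REF1 replicate 2 (0.0543).

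A2 gave 8 calls against REF2 (78.2% of all genes), Il18 higher (38.2%) and 7 members lower (40.0%). Against DAC8 it also gave 8 (78.9%), Il18 and Ifnlr1 higher (45.3%) and 6 lower (33.6%). Against DAC2, where B2m and Tap1 were not called, 6 were (78.8%), with Il18 higher (37.2%) and 5 lower (41.7%). B2m in that pair (0.11 ± 0.05, limma adjusted p = 0.0681) was called with quantile normalization (0.0396), with an intensity trend (0.00855), on the second probe set (0.84 ± 0.07, adjusted p = 2.1e-06) and on the mean of both (0.48, adjusted p = 1.9e-05). Against REF1, where Ifnlr1 and Tap2 were not called, 6 were (79.4%), with Il18 higher (45.7%) and 5 lower (33.7%). Il18 was 23.8-fold higher in A2 than in REF2 and 193-fold higher than in DAC8, the ends of the 4 pairs. Ifnlr1 exceeded DAC8 in A2 by 0.64 ± 0.15 (limma adjusted p = 0.00285). Irf1, Irf7 and Psmb9 were lower in A2 in each of the 4 pairs, although Irf7 against REF1 (-0.35 ± 0.12, adjusted p = 0.0211) was lost without REF1 replicate 1 (0.138) or either A2 array (0.0511 and 0.0848).

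The study set out to compare iPS with ES cells, so the labelled cell types were also compared on the means of their 2 lines. None of the 8 tested members was called in limma for iPS against ES (2.26% of all genes, 1.83% higher and 0.436% lower in iPS), for iPS against EF (2.53%, with 2.02% higher and 0.509% lower) or for ES against EF (0%). At an unadjusted p under 0.05, 1, 2 and 0 members passed, beside 1583, 1658 and 25 of all genes. On simulated arrays this fit, for iPS against ES, recovered 18% of changes of 2 log2 units and 66% of 6. A member that differs can therefore go uncalled. The shares of all genes fell to 0% without A1 or without A2, among others. Il18 differed by 6.67 ± 1.02 between iPS and ES (adjusted p = 0.0681) and by 5.69 ± 1.02 between iPS and EF (adjusted p = 0.0917), with no overlap of arrays in either. Each ES or EF mean joins a line of ES-like profile with one of fibroblast profile, and the Psmb9 difference of iPS minus ES was -2.53 ± 0.96 (adjusted p = 0.358). Fitted on single arrays with the line as a random block, Il18 alone was called in both iPS comparisons (adjusted p = 0.00044 and 0.00128). Without the lines labelled DAC8 and REF2, an alternative chosen after seeing the data, 6 members were called for iPS against ES, 4 for iPS against EF and 5 for ES against EF, beside 70.9%, 73.4% and 76.1% of all genes. The ES and EF arms of that fit are 1 line each (DAC2 and REF1), and its only residual spread is that between A1 and A2, which the lone lines are assumed to share. Those counts therefore compare single lines and give no measure of the spread within ES or EF. Il18 then differed by 5.86 and 6.91 and Psmb9 by -3.01 and -1.49 from the ES and the EF line that were left.

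Other genes of these pathways were read from a list of 106 names in 9 roles, written with earlier results of these arrays known. Of these, 87 were on the arrays under a symbol of their own and 63 were tested. In DAC2 against DAC8, 52 of the 63 were called (82.5%, beside 84.2% of all genes), 36 higher (47.9%) and 16 lower (36.3%) in DAC2. In REF2 against REF1, 51 were called (81%, beside 83.3% of all genes), 36 higher (47.3%) and 15 lower (36.0%). The median difference was 0.32 and 0.41, beside 0.18 and 0.15 for all tested genes. Gbp2, RT1-T24-4 and RT1-Db1 passed the filter only through DAC2 and REF2, and Gsdmd and Irf2 only through DAC8 and REF1. These medians of a list written with earlier results known are therefore a description. DAC8 and REF1 differed in 11 of the 63 (17.5%, beside 19.8% of all genes), and A1 and A2 in 3 (4.8%, beside 1.81%).

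In the proteasome role, 7 of 8 tested genes were called higher in DAC2 than in DAC8 and none lower, against 47.9% and 36.3% of all genes. The 8 include the constitutive subunits Psmb5, Psmb7, Psma1, Psma3 and Psmd4, so the count does not describe the inducible subunits alone. Psmb10, another inducible subunit, measured 7.24 to 7.86 over the 6 lines, with 7.74 in A1 and 7.79 in A2. Psme2, a subunit of the interferon-inducible PA28 activator, measured 10.89 in DAC2 and 11.26 in REF2 against 8.32 to 8.77 in the other lines, and exceeded REF1 in REF2 by 2.61 ± 0.05 (6.12-fold, limma adjusted p = 1.61e-10). Its partner Psme1 followed, with REF2 3.23-fold above REF1. Of the loading and trimming genes, all 8 tested were called between DAC2 and DAC8 (84.2% of all genes), 5 higher and 3 lower in DAC2. Erap1, which trims peptides in the endoplasmic reticulum, was 1.35-fold higher, and Rfx5, a regulator of class I and class II promoters, was 2.84-fold lower (-1.51 ± 0.09, adjusted p = 2.53e-07).

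The class I heavy chains of the rat, the RT1 genes, are many near-identical and polymorphic copies, so a probe set can read several of them and can bind one strain better than another. RT1-T24-4 measured 9.25 in DAC2 and 7.26 in REF2 and 2.85 to 3.37 in the other lines, while RT1-CE5 was highest in DAC8 at 8.71 and lowest in REF2 at 6.74. All 5 tested heavy chain genes were called between DAC2 and DAC8 (84.2% of all genes), 2 higher and 3 lower in DAC2. RT1-A and RT1-A3, looked up beside the list, had line means of 3.05 to 4.41 and 4.29 to 4.67. Both were below 5 in every line and were not tested. Of class II, RT1-Db1 measured 7.47 in DAC2 and 6.48 in REF2 against 3.17 to 3.90, but its second probe set stayed low in all lines, and the class II regulator Ciita and the invariant chain Cd74 did not reach 5 in any line. RT1-DMa, which helps load class II, was instead 2.15-fold lower in DAC2 than in DAC8 (-1.11 ± 0.16, limma adjusted p = 0.00011). Whether strain or probe binding had a part in the RT1 values was not tested.

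Among interferon targets, 7 of 12 tested genes were called higher and 2 lower in DAC2 than in DAC8 (47.9% and 36.3% of all genes), and 8 were higher and 1 lower in REF2 than in REF1 (47.3% and 36.0%). The 9 calls in each pair are 75% of the 12, a smaller share than the 84.2% and 83.3% of all genes. Gbp2, an interferon-induced GTPase, measured 10.00 in DAC2 and 10.28 in REF2 against 3.03 to 3.26 in the other 4 lines, and DAC2 exceeded DAC8 by 6.74 ± 0.11 (limma adjusted p = 4.53e-11). Ifitm1, a membrane protein that is also high in germ and pluripotent cells, measured 12.28 and 12.44 in the same lines, 8.40 in A1 and 9.19 in A2, and 4.11 in DAC8 and 5.46 in REF1. The well-known targets Ifit1, Ifit2, Ifit3, Mx1, Mx2, Oas1a, Usp18, Rsad2, Ifi44 and Cxcl10 were below 5 in every line and were not tested. Isg15 and Ifi35 were also high in DAC2 and REF2. Isg15, a ubiquitin-like protein, measured 6.78 in DAC2 and 8.18 in REF2 against 4.82 to 5.19 in the other lines, and Ifi35 7.87 and 8.52 against 4.99 to 6.47. Both were called higher in DAC2 than in DAC8 (by 1.59 ± 0.20 and 1.54 ± 0.11, limma adjusted p = 4.75e-05 and 8.38e-07). Other tested targets were ordered differently. Ifitm3 peaked in the fibroblast-like lines, with 11.46 for REF1 and 10.78 for DAC8, and ranged from 8.37 to 9.38 elsewhere. Ifi27 was lowest in DAC2, at 6.97, while all remaining lines lay between 8.97 and 9.38. Bst2 was highest in A1, at 7.11, and lowest in DAC8, at 4.48. The targets on the list therefore did not share a pattern.

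The signalling genes went both ways. Of the 10 tested receptors and kinases, 4 were called higher and 4 lower in DAC2 than in DAC8 (47.9% and 36.3% of all genes). Jak1, a kinase of all 3 interferon receptor types, was 4.84-fold lower in DAC2 than in DAC8 (-2.28 ± 0.05, limma adjusted p = 4.43e-10), and the kinase Jak2 was 2.02-fold higher (1.01 ± 0.13, adjusted p = 6.73e-05). The interferon-gamma receptor chains also differed in sign, with Ifngr1 2.69-fold lower and Ifngr2 1.69-fold higher (adjusted p = 2.52e-07 and 1.07e-05). Socs3, a feedback inhibitor of cytokine signalling that leukaemia inhibitory factor induces, was 4.93-fold higher (limma adjusted p = 2.21e-06), with a DAC8 level of 4.75. Irf2, which competes with Irf1 for its sites, ran opposite to it between the ES-like and fibroblast-like lines. DAC2 measured 3.36 and REF2 3.79, both below 5, while DAC8 measured 6.62 and REF1 6.19. In the iPS lines Irf1 and Irf2 both lay below DAC8 and REF1, with Irf2 at 4.75 in A1 and 4.81 in A2. Stat2, part of the type I interferon complex, was 1.95-fold higher in REF2 than in REF1 (adjusted p = 4.49e-07) and did not pass the test between DAC2 and REF1 (adjusted p = 0.0775). In RNA and DNA sensing, 5 of 7 tested genes were higher and 1 lower in DAC2 than in DAC8 (47.9% and 36.3% of all genes). Dhx58, a RIG-I-like helicase, was 6.45-fold higher (2.69 ± 0.37, limma adjusted p = 8.29e-05). That fold rests on a DAC8 level of 3.15, below 5, with a standard deviation of 0.96 between the DAC8 arrays. The adaptor Myd88 was 5.41-fold lower (limma adjusted p = 2.3e-07), with a DAC2 level of 4.99.

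Il18 is released after caspase-1 cleaves it in an inflammasome and gasdermin D opens pores in the membrane. Casp1 was below 5 in every line, and Gsdmd, which encodes gasdermin D, measured 3.19 in A1 and 3.17 in A2, where Il18 was highest, against 6.75 in DAC8 and 6.71 in REF1. Pycard, the inflammasome adaptor, was highest in REF2 at 6.56 and below 5 in A1, A2 and DAC8. RNA levels on these arrays do not measure release of the cytokine.

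**Figure D4:**
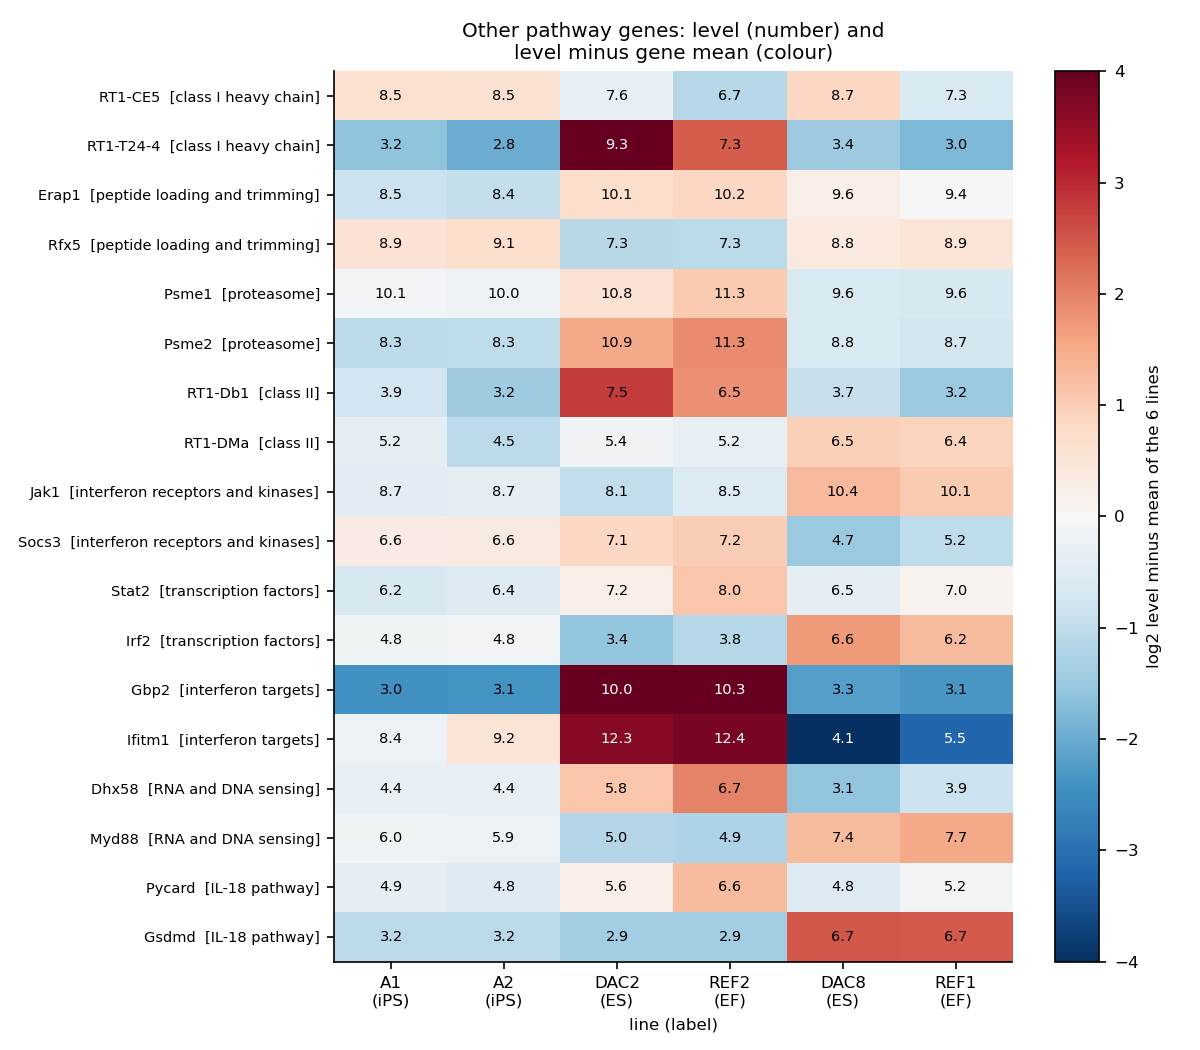
Line means of the 2 tested genes with the widest range in each of 9 pathway roles; the number is the log2 level and the colour the level minus the mean of the 6 lines. Gbp2, Ifitm1, Psme2 and RT1-T24-4 are high in DAC2 and REF2, and Gsdmd, Jak1, Irf2 and Myd88 are high in DAC8 and REF1.

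For each tested member, the 2 genes with the most similar profile of 6 line means were found among the 11001 tested genes, by the root mean square of the difference after centring. Il18 was closest to En2, a homeobox gene of the midbrain and hindbrain, at 0.17 log2 units (r = 0.999 over 6 lines), and En2 was the only gene within 0.25. Irf1 was closest to Als2cl (0.16) and Tmem63a (0.23), and Psmb9 to Plpp3 (0.18) and Cd59b (0.22), with no other gene within 0.25 of either. Tap1 was closest to Serpinb9 (0.09), a granzyme B inhibitor, and to Hspb6 (0.14), among 39 genes within 0.25. Ifnlr1 had no gene within 0.25, and its nearest, C5h1orf127 and Cela2a, lay 0.53 and 0.57 away. For B2m, Tap2 and Irf7, whose ranges are narrow, 543, 256 and 51 genes lay that close, with Ddb1 and Lrrc42 nearest to B2m, Rab43 and Mapk9 to Tap2, and Tmem179 and Apoc3 to Irf7. The 6 lines fall into 3 pairs of like profile, so such likeness is a description only.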

How the data were processed

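The authors deposited log2 signals of 31099 probe sets on 12 arrays, made with RMA and Partek 6.2, per the submitters' processing notes. RMA compresses the differences of dim genes. The sources used here do not say whether it was run on all arrays at once. Values were taken unchanged. Probe sets with 1 symbol (20832) were kept, and the highest-mean probe set stood for each gene.

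The comparisons of lines were run in limma 3.58.1 (R 4.3.3) with 6 residual degrees of freedom, and labelled cell types on 6 line means with 3. Adjustment was Benjamini-Hochberg within each comparison over the 11001 genes whose highest line mean reached 5, and calls were at adjusted p under 0.05. Fits were tested on simulated arrays. The fit of 6 lines, for DAC2 against DAC8, recovered 16%, 62%, 98% and 100% of changes of 0.25, 0.5, 1 and 2 log2 units. The fit on line means, for iPS against ES, recovered 0%, 18%, 56% and 66% of changes of 1, 2, 4 and 6 log2 units. The members and lists were chosen with earlier results of these data known. Named genes were all members, the 2 tested genes of widest range in each pathway role, the 2 nearest in profile to each member, and 4 markers; other genes were named after their values were seen. Promoter windows came from RefSeq (GRCr8), and plots were drawn with matplotlib 3.10.9. The replicate numbers of a line did not pair its arrays with those of other lines.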

Additional observations from a re-analysis of the deposited data

How the results depend on the processing

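Alternatives were another filter, scaling, probe set rule or variance prior, a replicate block, only the 2 lines compared, single arrays or lines left out, and, added after seeing the data, no DAC8 and REF2. Scalings moved no array median by over 0.07. The shares of genes and counts of members called between lines of unlike profile kept within 1.5 times throughout, except members called for A1 against REF1 (5 to 8 with single arrays left out). Only 2 arrays per line, and no detection calls, limit every value.

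For A1 against A2, the percent of genes called was 0.999 with no filter, 3.26 with an intensity trend, 0.118 with only these lines, 0.966 without DAC8 and REF2 and 0.699 to 1.65 with single arrays left out. Members called were 2 with the trend, 0 with only these lines and 1 to 2 with single arrays left out. For DAC8 against REF1, the percent was 12.8 with no filter, 12 with only these lines and 11.3 to 19.2 with single arrays left out. Members called in that pair were 4 to 6 with single arrays left out.

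For iPS against EF, iPS against ES and ES against EF, 1, 1 and 0 members and 5.06%, 4.65% and 0% of genes were called with the line as a random block, and 3, 4 and 0 members and 28.8%, 27.3% and 0.0545% with no line block. Without DAC8 and REF2, 4, 6 and 5 members and 73.4%, 70.9% and 76.1% of genes were called, but ES and EF are then 1 line each, assumed to vary as A1 and A2 do. With single arrays or lines left out, the percent called was 0 to 2.54 for iPS against EF and 0 to 2.29 for iPS against ES.

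The sign, not called in any of these fits, turned for Tap2 for DAC2 minus DAC8 (0.0296 with quantile normalization, 0.0459 with equal medians, -0.0916 to 0.069 with single arrays left out) and B2m for REF2 minus DAC8 (0.0126 with equal medians, -0.0412 to 0.0028 with single arrays left out). Single arrays also turned Ifnlr1 for A2 minus REF1 (-0.0105 to 0.2066) and Irf1 for DAC2 minus REF2 (-0.0038 to 0.1157). In contrast, the second B2m probe set reversed the iPS differences: A1 minus REF2 0.0819, A1 minus DAC8 0.0474, A1 minus REF1 0.59, A2 minus REF2 0.16, A2 minus DAC8 0.13 and A2 minus REF1 0.66, called only against REF1. The mean of both probe sets gave 0.21 and 0.23 against REF1, both called. The cause was not tested.

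Replicate numbers did not pair the arrays: same-numbered arrays correlated at -0.08 to 0.24 (median 0.01) in 15 pairs of lines, and 12 were not above 0.1. With the replicate block, 7 members and 84.4% of genes were called for DAC2 against DAC8. Tap1 became called for A1 and A2 against DAC2 (adjusted p = 0.0178 and 0.0203, limma), Irf7 for A1 against REF1 was lost (0.0543), and no count of members moved by over 1.5 times.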
